A study of Sus scrofa with 6 samples.

Results

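The antisense lncRNAs assembled from porcine longissimus dorsi (LD) muscle were examined for their level, their detection in each pig and their relation to the gene on the opposite strand. They were chosen by name: an assembled transcript was taken when the authors had named it after a gene followed by -AS and a number, and when it lay on chromosomes 1 to 18 or X. This gave 1614 of the 7386 assembled lncRNAs and of the 83119 transcripts in the table, and another 30 antisense lncRNAs lay on unplaced scaffolds. The gene before -AS is called the partner gene here.

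LD muscle of 6 Laiwu pigs, a Chinese breed known for marbled meat, had been sequenced from total RNA after removal of ribosomal RNA, with 1 strand-specific library per pig. The S-H group held the 3 pigs with extremely high intramuscular fat (IMF) content, which were LW63, LW70 and LW119. The S-L group held the 3 pigs with extremely low IMF content, which were LW82, LW88 and LW90. Each pig is 1 biological replicate, both groups are of the same breed and had been picked from a larger slaughtered herd by IMF content with sex and carcass weight considered, all 6 were castrated males per the study's methods, and the labels give no age.

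An antisense lncRNA is read from the strand opposite to another gene, so that the transcripts share genomic sequence in reverse complement. Some well-studied antisense RNAs act on the gene they overlap, by changing chromatin or transcription in cis or by pairing with its mRNA, and others arise beside a promoter that fires in both directions. Most lncRNAs are made in smaller amounts than mRNAs and vary more between tissues.

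All values are FPKM, the fragments of a transcript scaled to its length and to the fragments mapped in the library, so levels of transcripts of different length can be compared. Read counts were not used here, so that the depth of single values is unknown and precision is given by the spread over the pigs. Skeletal muscle markers were abundant in every library, with a summed level of 5 markers between 7649 and 12280 FPKM. The 6 adipocyte markers summed to 1271, 710 and 434 FPKM in LW63, LW70 and LW119 and to 367, 283 and 245 FPKM in LW82, LW88 and LW90. The S-H pigs all stood above the S-L pigs in this sum and in 5 of its 6 markers, the exception being PLIN4. Of the 2 satellite cell markers, PAX7 was lower in all S-H pigs, without overlap, while MYF5 overlapped between the groups (log2 fold change 0.47). Of the 4 endothelial markers PECAM1 was higher in all S-H pigs, and none of the macrophage, fibroblast, smooth muscle or Schwann cell markers separated the groups upwards. In whole muscle, fewer cells of a type and less RNA per cell cannot be told apart. These values bear on every comparison of S-H with S-L below, and the part of cell make-up in those comparisons was not tested.

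The 1614 antisense lncRNAs came from 1318 assembled loci and were named after 1254 partner genes. Of these partners 1087 had a symbol, and 77 others could be given a RefSeq name by position on the same assembly (Sscrofa11.1), without a check of strand. RefSeq gave a gene type for the partners of 1402 antisense lncRNAs, and 1380 of those partners were protein-coding. All 1614 overlapped the span of their partner. Most of them reached past it or covered it: 436 (27.01%) ran past the low-coordinate end of the partner, 403 (24.97%) past the high-coordinate end and 122 (7.56%) covered the whole gene, while 653 (40.5%) lay inside it. Strand, exons and transcript length were not taken from the table, so that these ends are ends on the chromosome and not 5′ or 3′ ends, and overlap with exons or introns was not determined. The genomic span of an antisense lncRNA had a median of 11340 bases, with quartiles of 3782 and 29244 bases. A further gene besides the partner lay under 381 of them. Antisense lncRNAs were found on every chromosome at a mean of 5.32 per 100 Ensembl genes, from 3.74 on chromosome 11 to 6.73 on chromosome 8. One partner usually had 1 antisense lncRNA, but 219 partners had more and 14 had at least 5.

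Antisense lncRNAs were scarce transcripts that stood between the sense-overlapping and the intergenic lncRNAs in level. The median of the mean over the 6 pigs was 0.164 FPKM, with quartiles of 0.0801 and 0.339. The same median was 0.252 FPKM over 3661 sense-overlapping lncRNAs and 0.114 FPKM over 1792 intergenic lncRNAs of the same chromosomes. A mean of at least 1 FPKM was reached by 107 antisense lncRNAs (6.63%), against 11.09% of the sense-overlapping and 2.40% of the intergenic lncRNAs. Only 12 antisense lncRNAs reached 5 FPKM.

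**Figure D1:**
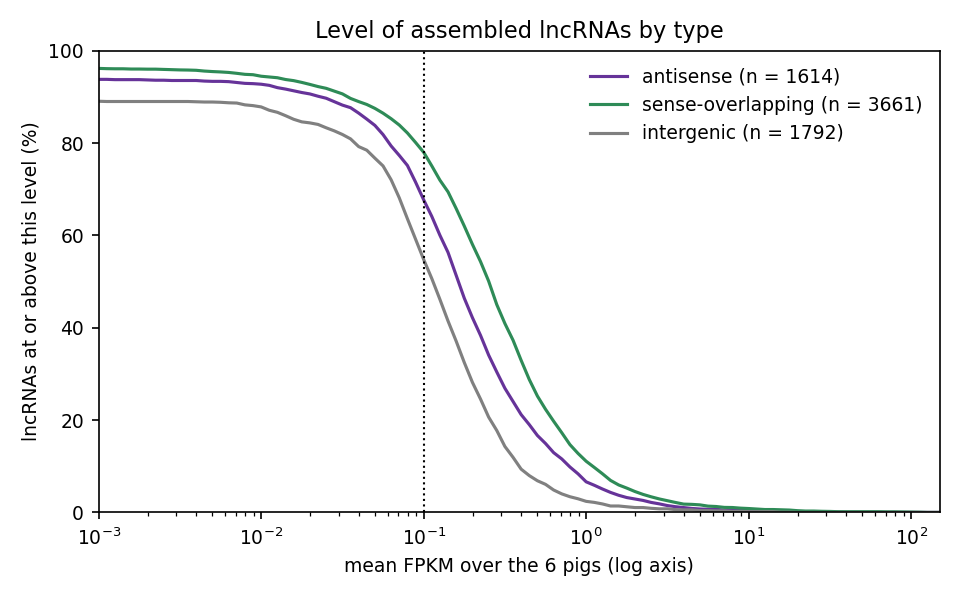
Share of assembled lncRNAs (y axis, in percent) whose mean FPKM over the 6 pigs is at or above the level on the x axis (log axis), for 1614 antisense, 3661 sense-overlapping and 1792 intergenic lncRNAs on chromosomes 1 to 18 and X. The dotted line marks 0.1 FPKM, and the antisense curve runs between the other curves from 0.1 to 1 FPKM, with 6.63% of antisense lncRNAs at or above 1 FPKM.

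Detection followed the same order. A value above 0 was listed in all 6 pigs for 600 antisense lncRNAs (37.2%), compared with 53.2% of the sense-overlapping and 24.9% of the intergenic lncRNAs. Between these extremes, 191 were above 0 in 1 pig, 170 in 2, 155 in 3, 187 in 4 and 212 in 5 pigs. The other 99 were listed at 0 in every pig. The antisense lncRNAs seen in 1 pig were not spread evenly: 56 of them were seen in LW119 and 41 in LW63, but 14 in LW88. Over all transcripts of any kind, LW119 also had the most above 0 (48568) and LW88 the fewest (44552). The highest of these single-pig transcripts had a mean of 1.57 FPKM. At a limit of 0.1 FPKM in place of 0, 387 antisense lncRNAs were detected in all 6 pigs.

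Per pig, 1119, 1048 and 1178 antisense lncRNAs were above 0 in LW63, LW70 and LW119, and 1087, 960 and 1012 in LW82, LW88 and LW90. The groups overlapped, since LW82 had more than LW70. Transcripts of any kind above 0 numbered 47705, 47081 and 48568 in LW63, LW70 and LW119. They numbered 47490, 44552 and 45849 in LW82, LW88 and LW90. This ranks the pigs in the same order, so the order is not particular to antisense lncRNAs. The mean was 1115 ± 65.1 in S-H and 1020 ± 63.9 in S-L (SD, n = 3 each), and an exact two-sided permutation test gave p = 0.20, where 0.10 is the smallest p that 3 pigs against 3 allow. The summed level of all antisense lncRNAs was 697, 589 and 743 FPKM in the S-H pigs and 762, 591 and 640 FPKM in the S-L pigs. These sums overlapped fully, with means of 676 ± 79.3 and 664 ± 88.2 FPKM (exact two-sided permutation p = 1.0). The 10 antisense lncRNAs of highest mean made up between 15.8% of the sum, in LW119, and 23.8%, in LW82.

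**Figure D2:**
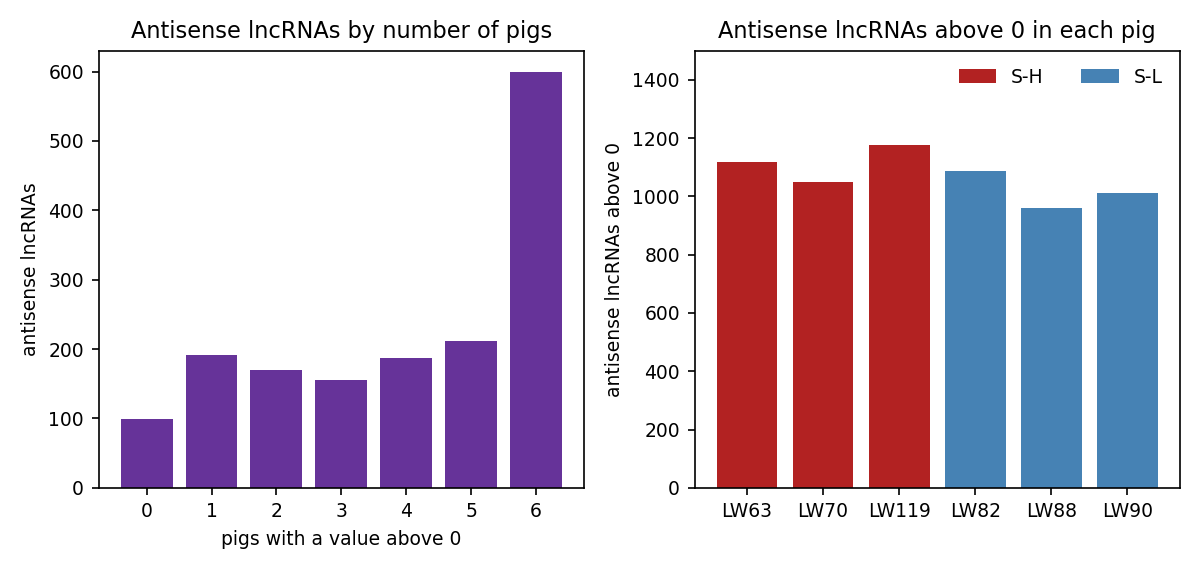
Left, the number of antisense lncRNAs (y axis) with a value above 0 in 0 to 6 pigs (x axis); right, the number above 0 in each pig, with S-H pigs in red and S-L pigs in blue. The bar for 6 pigs holds 600 antisense lncRNAs, and single pigs lie between 960 (LW88) and 1178 (LW119).

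The 10 antisense lncRNAs of highest mean were led by those of CAB39 and UBR3, which were seen at a nearly constant share of their partner. CAB39 encodes MO25, a scaffold of the LKB1 kinase complex. CAB39-AS1 (chromosome 15, 131492541 to 131533350) began 109 bases below the low-coordinate end of CAB39 and overlapped it over 40701 bases. Its level was 41.2, 33.9 and 21.1 FPKM in LW63, LW70 and LW119, and 39.9, 39.4 and 42.1 FPKM in LW82, LW88 and LW90. LW119 was the lowest pig for CAB39-AS1, and it was also the lowest for CAB39, at 88.1 FPKM against 120 to 155 FPKM in the other 5 pigs. The antisense lncRNA thus stood at 24.0% to 32.8% of CAB39 in every pig.

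UBR3 encodes a ubiquitin ligase of the N-degron family. UBR3-AS1 (chromosome 15, 76135437 to 76137315) was a short locus of 1879 bases that crossed the low-coordinate end of UBR3 by 57 bases. It was at 21.01, 19.8 and 17.1 FPKM in the S-H pigs and at 23.5, 21.6 and 21.3 FPKM in the S-L pigs. Every S-H pig was below every S-L pig by a narrow gap, between LW63 and LW90, and the share of UBR3 stayed between 25.4% and 29.3%. SCARB2-AS1 (chromosome 8, 71894627 to 71910495) lay inside SCARB2, which encodes the lysosomal membrane protein LIMP-2. Its levels of 13.3, 9.60, 13.3, 9.87, 14.3 and 6.84 FPKM, in the order LW63, LW70, LW119, LW82, LW88 and LW90, were 27.4% to 35.3% of SCARB2. PTP4A2-AS1 (chromosome 6, 88446870 to 88454111), opposite a protein tyrosine phosphatase gene, was at 10.2, 11.2, 7.30, 8.66, 10.6 and 9.35 FPKM in the same order. That was 6.21% to 7.98% of PTP4A2. None of these 4 passed the thresholds between the groups that are given below, with unadjusted p from limma between 0.225 and 0.954.

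GPD1 encodes the cytosolic glycerol-3-phosphate dehydrogenase, which supplies the glycerol backbone of triglycerides. GPD1-AS1 (chromosome 5, 16006838 to 16016304) was at 18.9, 17.3 and 9.73 FPKM in LW63, LW70 and LW119 and at 14.3, 8.66 and 17.1 FPKM in LW82, LW88 and LW90. GPD1 itself was at 188, 219 and 101 FPKM in S-H and at 77.7, 75.6 and 152 FPKM in S-L. LW119 and LW88 were the lowest pigs for the antisense lncRNA, the groups overlapped for both transcripts, and the ratio ran from 7.88% in LW70 to 18.4% in LW82.

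Other antisense lncRNAs of this highest level went their own way from pig to pig. H2BC21-AS1, inside a histone H2B gene on chromosome 4, was listed at 0, 0, 1.06, 37.7, 5.92 and 0 FPKM, again in the order LW63, LW70, LW119, LW82, LW88 and LW90. Its mean of 7.45 FPKM rests on LW82. EGF-AS1, opposite the gene for epidermal growth factor, was at 5.69, 0.131, 6.92, 14.5, 8.07 and 6.68 FPKM. LW70 was far below the other pigs for EGF-AS1, while EGF was at 14.7 FPKM in that pig and at 11.3 FPKM in LW82, where EGF-AS1 was highest. MYH8-AS1, opposite the perinatal myosin heavy chain gene MYH8, was at 6.37, 4.35, 6.61, 8.86, 3.09 and 11.8 FPKM. Only 3602 of its 86351 bases overlapped MYH8, and it also lay over MYH13, whose mean was 9.54 FPKM.

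An antisense lncRNA on chromosome 3 (64878792 to 64879665) was named after ENSSSCG00000022842, which lies where RefSeq places LOC100525692. It overlapped this partner over 820 of its 874 bases. It was at 25.6, 9.74 and 19.5 FPKM in LW63, LW70 and LW119 and at 10.7, 4.37 and 4.28 FPKM in LW82, LW88 and LW90. The groups overlapped through LW70 and LW82 (log2 fold change 1.52 ± 0.51, limma adjusted p = 0.848). Its partner was at 20.3, 37.9 and 36.5 FPKM in LW63, LW70 and LW82 and at or near 0 in the other 3 pigs, at most 0.0217 FPKM. The partner was thus all but absent in 3 pigs in which the antisense lncRNA was read at 4.28 to 19.5 FPKM.

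Where both reached 0.1 FPKM on average, an antisense lncRNA was in general the minor transcript of its pair. The pairs examined were the 898 in which both the antisense lncRNA and the partner had a mean of at least 0.1 FPKM, with 750 partners. The level of the partner was the sum over its Ensembl transcripts. The median of log2((antisense FPKM + 0.1)/(partner FPKM + 0.1)) was -2.94, with quartiles of -4.47 and -1.56. Taken separately without the 0.1, the median level of the antisense lncRNA was 9.77% of its partner. Sense-overlapping lncRNAs had nearly the same median against their own gene, -2.88 over 2409 pairs. Partners were more active than genes at large, since 59.6% of the partners and 31.2% of all Ensembl genes had a mean of at least 1 FPKM. Across the pairs, levels of antisense lncRNA and partner had a Spearman rho of 0.273, a description across genes that share the same 6 libraries.

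**Figure D3:**
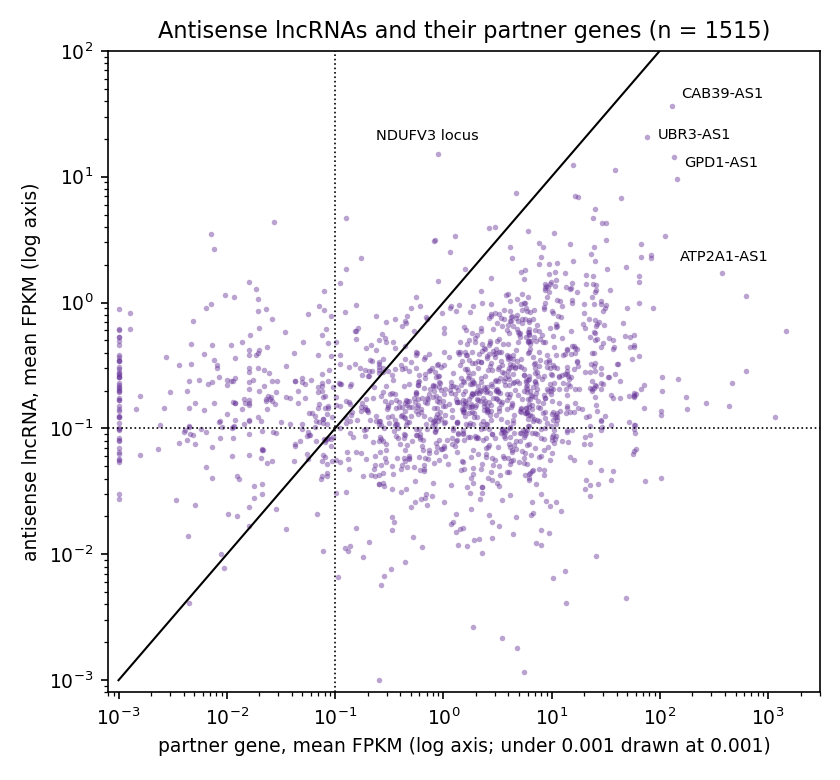
Mean FPKM over the 6 pigs of each of the 1515 antisense lncRNAs above 0 in at least 1 pig (y axis, log axis) against the mean of its partner gene (x axis, log axis, partners under 0.001 FPKM drawn at 0.001). The solid line marks equal levels and the dotted lines 0.1 FPKM, and most points lie below the solid line where the partner is above 1 FPKM.

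Among the 898 pairs, 76 (8.46%) had an antisense lncRNA above its partner, and in 17 pairs this held in each of the 6 pigs. This share leaves out 195 antisense lncRNAs of at least 0.1 FPKM whose partner was below 0.1 FPKM. By their means these all stood above their partner. Among the 17 pairs, the antisense lncRNA of highest mean was on chromosome 13 (206111356 to 206124027). It was named after ENSSSCG00000021991, which lies where RefSeq places NDUFV3, a subunit gene of mitochondrial complex I. It was at 10.6, 23.5, 15.0, 13.6, 16.4 and 11.2 FPKM in LW63, LW70, LW119, LW82, LW88 and LW90, against 0.706 to 1.28 FPKM for the partner. The others were named here for having passed this comparison. ATCAY-AS1, opposite a gene best known from neurons, had a mean of 4.67 FPKM against 0.125 FPKM for ATCAY. It was at 0.263 FPKM in LW90 and between 1.63 and 7.83 FPKM in the other 5 pigs. ATCAY-AS2, which shares its low-coordinate end, was at 7.53 FPKM in LW90 and between 0.113 and 2.90 FPKM in the other 5 pigs. Antisense RNA of ATCAY was thus not low in LW90 when both transcripts are regarded. KCNAB3-AS1, opposite a potassium channel subunit gene, was steadier, at 2.40 to 3.94 FPKM against a mean of 0.836 FPKM for KCNAB3. HTR2B-AS1, opposite a serotonin receptor gene, had a mean of 2.28 FPKM against 0.172 FPKM for HTR2B, and was at 1.28, 0.636 and 2.44 FPKM in S-H and at 3.56, 2.54 and 3.21 FPKM in S-L. Every S-L pig was above every S-H pig for HTR2B-AS1, with a log2 fold change of -1.21. Its unadjusted p from limma, 0.0458, missed the p threshold given below (limma adjusted p = 0.848).

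A partner below 0.1 FPKM was found for 195 of the 1093 antisense lncRNAs that reached 0.1 FPKM on average. In 9 of these the antisense lncRNA reached 1 FPKM, and 8 of the 9 were above 0 in all 6 pigs. PRMT8-AS1, opposite an arginine methyltransferase gene mainly used in brain, had a mean of 2.66 FPKM and ran from 0.870 FPKM in LW70 to 6.14 FPKM in LW63, while PRMT8 had a mean of 0.00763 FPKM. LRRTM3-AS2, opposite a synaptic adhesion gene, had a mean of 1.25 FPKM against 0.0790 FPKM for LRRTM3. HMGN4-AS1 was the one that was not above 0 in every pig, at 9.30, 0 and 0.000176 FPKM in the S-H pigs and at 8.13, 3.77 and 0.000169 FPKM in the S-L pigs. It was high in LW63, LW82 and LW88 and at or near 0 in the other 3 pigs, a pattern that cuts across the groups.

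To see whether the antisense lncRNA followed its partner from pig to pig, Pearson's r of log2(FPKM + 0.1) was taken over the 6 pigs for each pair. The points of one r share their libraries, with 3 pigs in each group, so r is given as a description. The libraries kept the strand, but whether the strand was used when reads were assigned to transcripts is not given in the sources used here, and without it reads of a gene and of its antisense partner cannot be told apart. The median r over the 898 pairs was 0.27, with quartiles of -0.09 and 0.59. When the antisense lncRNAs of these pairs were set against the partners of the other ones instead (672602 combinations), the median was 0.06. An r above 0.8 was reached by 79 own pairs (8.80%) and by 3.68% of the other combinations, while an r below -0.8 was found in 1.56% and 2.40%. With median-ratio size factors the medians became 0.20 for own pairs and -0.01 for the other combinations. Sense-overlapping lncRNAs followed their gene at a median r of 0.34, with 11.7% of pairs above 0.8.

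The correlation was higher where both transcripts were well expressed. In 54 pairs with an antisense lncRNA of at least 1 FPKM and a partner of at least 10 FPKM the median r was 0.70, and 47 of the 54 had an r above 0. In 17 of them (31.5%) r was above 0.8, compared with 4.45% when the same antisense lncRNAs were set against other partners. With the 2 most extreme pigs by antisense level left out, 9 of those 17 stayed above 0.8 and 16 stayed above 0. These 17 included CAB39-AS1 (r = 0.90, Spearman rho = 0.71), UBR3-AS1 (r = 0.95, rho = 0.89), SCARB2-AS1 (r = 0.94, rho = 0.89) and PTP4A2-AS1 (r = 0.84, rho = 0.83). Without these 2 pigs, r was 0.81 for SCARB2-AS1 but 0.33 for CAB39-AS1, 0.28 for UBR3-AS1 and 0.37 for PTP4A2-AS1. Leaving out the extremes narrows the range of antisense level, which can by itself lower r. Whether the relation rested on those pigs in the latter 3 cannot be told from this. By position, the median r over all pairs was 0.27 inside the partner, 0.27 past the low-coordinate end, 0.26 past the high-coordinate end and 0.28 over the whole gene.

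**Figure D4:**
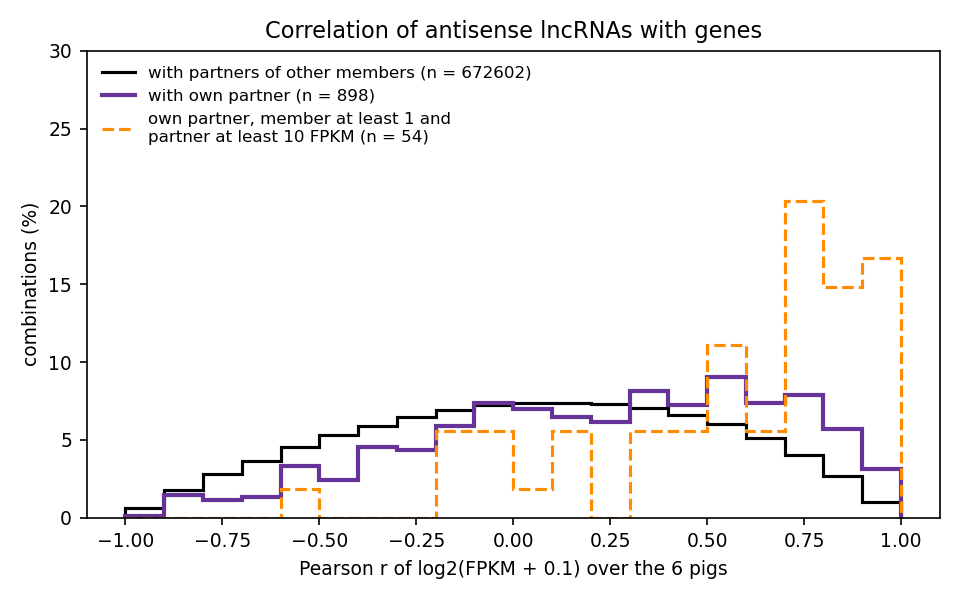
Distribution of Pearson's r over the 6 pigs on log2(FPKM + 0.1) (x axis, in steps of 0.1) as a percentage of the combinations (y axis), for 898 antisense lncRNAs with their own partner (purple), the 672602 combinations with partners of other antisense lncRNAs (black) and the 54 pairs of high level (orange, dashed). The purple curve is shifted to higher r than the black one (medians 0.27 and 0.06), and the dashed curve has its bulk above 0.5 (median 0.70).

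The pairs of highest r, among 392 pairs with values above 0 in every pig and a partner of at least 1 FPKM, were those of ANGPTL2, SRXN1, PPFIBP1, BAZ1A and RGMB, all with r = 0.96. ANGPTL2 encodes a secreted angiopoietin-like protein. ANGPTL2-AS1 was at 3.73, 2.01, 5.29, 1.97, 5.58 and 2.71 FPKM in LW63, LW70, LW119, LW82, LW88 and LW90, and ANGPTL2 at 11.3, 8.65, 13.3, 6.63, 15.2 and 8.73 FPKM. Both were lowest in LW82 and highest in LW88, and the ranks of the 6 pigs were the same for both (rho = 1.0). SRXN1 encodes sulfiredoxin, an antioxidant enzyme. SRXN1-AS1 ranged from 0.287 FPKM in LW70 to 3.14 FPKM in LW88, and SRXN1 from 3.19 to 40.3 FPKM in the same pigs. PPFIBP1-AS1, opposite the liprin gene PPFIBP1, stood at 7.58% to 8.61% of its partner. Without the 2 most extreme pigs r was 0.87 for ANGPTL2-AS1, 0.84 for SRXN1-AS1, 0.89 for PPFIBP1-AS1, 0.82 for BAZ1A-AS1 and 0.65 for RGMB-AS1.

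At the other end of the same 392 pairs, the lowest r was found for TIA1-AS1 (-0.85), PSMA3-AS2 (-0.84), ZBTB17-AS1 (-0.81), TERF1-AS1 (-0.80) and PSMA3-AS4 (-0.79). TIA1 encodes an RNA-binding protein of stress granules, PSMA3 a subunit of the proteasome and TERF1 a telomere-binding protein. PSMA3-AS2 was at 0.320, 0.466, 0.551, 0.738, 0.283 and 0.411 FPKM in LW63, LW70, LW119, LW82, LW88 and LW90, and PSMA3 at 69.7, 60.5, 47.1, 48.1, 72.2 and 49.7 FPKM. The pigs with the lowest PSMA3-AS2, LW88 and LW63, had the highest PSMA3. The locus had further antisense lncRNAs, with r of -0.78 for PSMA3-AS1, -0.24 for PSMA3-AS3, 0.02 for PSMA3-AS5 and -0.14 for PSMA3-AS6. Summed over all 6 of the locus, the level was 1.03, 1.04, 2.32, 2.10, 1.38 and 2.14 FPKM in the same order of pigs. Leaving out the 2 most extreme pigs gave -0.77 for PSMA3-AS2 and -0.90 for PSMA3-AS4, but -0.63 for TIA1-AS1, -0.23 for TERF1-AS1 and -0.24 for ZBTB17-AS1. PSMA3-AS2 and PSMA3-AS4 share one end and nearly the other, so that they are not separate pairs.

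An end close to the same-side end of the partner was a feature of the more abundant antisense lncRNAs. Of all 1614, 198 (12.3%) had an end within 100 bases of it, 104 of them within 20 bases. This share was 7.29% below 0.1 FPKM, 12.6% from 0.1 to 1 FPKM and 33.6% (36 of 107) at 1 FPKM or more. It was 24.5% over the sense-overlapping lncRNAs. In the 54 pairs of high level, the 23 with a shared end had a median r of 0.68 and the 31 without one a median r of 0.71, while r was above 0.8 in 9 (39.1%) of the former and 8 (25.8%) of the latter. Over all 898 pairs the median r was 0.32 in the 147 with a shared end and 0.26 in the other 751, and r was above 0.8 in 10.9% and 8.39% of them. These differences were not tested.

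The comparison of S-H with S-L asked which antisense lncRNAs differed with IMF content. Of the 1614, 1093 had a mean of at least 0.1 FPKM and entered a limma fit with all 40336 transcripts of this level. Another 521 were not tested, and the antisense lncRNAs just inside and just outside this minimum had means of 0.1002 and 0.0998 FPKM. The thresholds of the study were used, an unadjusted p below 0.01 and a log2 fold change of at least 1 in either direction. Only 9 antisense lncRNAs (0.823%) passed, 7 higher (0.640%) and 2 lower (0.183%) in S-H, beside a background of 1.25% of all transcripts tested (0.751% higher and 0.496% lower). The share of antisense lncRNAs past the thresholds was not above that background. Of the 1093, 158 had a mean of at least 0.1 FPKM in S-H only and 125 in S-L only, and 7 of the 9 (all but KMT5A-AS1 and ENSSSCG00000037487-AS1) reached it only in the group where they were high. They had to differ to be tested, so the count of 9 is given as a description. With adjustment over all 40336 transcripts none passed (lowest Benjamini-Hochberg adjusted p from limma 0.256), against 34 of all transcripts (0.0843%), and 50 (4.57%) had an unadjusted p below 0.05, against 5.57% of all transcripts. Groups that did not overlap were found for 69 antisense lncRNAs higher in S-H (6.31%, background 8%) and 43 lower in S-H (3.93%, background 3.31%). The median log2 fold change was 0.09 over tested antisense lncRNAs and 0.14 over all tested transcripts, and with median-ratio size factors these were -0.01 and 0.02, with 6 antisense lncRNAs past the thresholds higher and 4 lower in S-H. The count of 9 moved to 22 without LW119, 19 without LW82, 18 without LW90 and 14 without LW63, and to 0 with a pseudocount of 1 in place of 0.1.

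The antisense lncRNA with the lowest p was GALNT15-AS2 (chromosome 13, 3329723 to 3338990), opposite a gene for an enzyme that starts O-linked glycosylation. It was at 0.384, 1.14 and 0.837 FPKM in LW63, LW70 and LW119 and at 0.00133, 0 and 0.00451 FPKM in LW82, LW88 and LW90. All S-H pigs were far above all S-L pigs, in which it was at or near 0 (log2 fold change 3.02 ± 0.52 on the log2(FPKM + 0.1) scale, limma adjusted p = 0.256). GALNT15 itself was at 18.4, 25.01 and 26.0 FPKM in S-H and at 24.7, 19.4 and 28.1 FPKM in S-L, with overlapping groups (log2 fold change -0.06, limma adjusted p = 0.958). A second antisense lncRNA of the gene, GALNT15-AS1, was at 0.290, 1.04 and 1.04 FPKM in S-H and at 1.67, 0.830 and 1.72 FPKM in S-L. Its groups overlapped (log2 fold change -0.85, limma adjusted p = 0.859). GALNT15-AS1 (chromosome 13, 3329723 to 3338985) and GALNT15-AS2 share one end and nearly the other, so that they are not separate pairs. Antisense RNA of GALNT15 was thus listed in every pig, and only the GALNT15-AS2 transcript was at or near 0 in S-L. How reads were divided between these transcripts was not tested.

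TMEM63B-AS1 (chromosome 7, 39153590 to 39205740) lay inside a gene for a mechanosensitive ion channel. It was at 1.18, 0.433 and 0.502 FPKM in the S-H pigs and at 0, 0 and 0.118 FPKM in the S-L pigs (log2 fold change 2.52 ± 0.59, limma adjusted p = 0.593). TMEM135-AS1 (chromosome 9, 21007283 to 21026617), opposite a gene for a membrane protein of peroxisomes and mitochondria, was at 0.375, 0.319 and 1.04 FPKM in S-H and at 0, 0 and 0.114 FPKM in S-L (log2 fold change 2.24 ± 0.62, limma adjusted p = 0.782). Both were above 0 in LW90 as the single S-L pig, and in neither did the groups overlap. Their partners did not pass the thresholds, with log2 fold changes of 0.30 for TMEM63B and 0.86 for TMEM135.

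Of the 9, 4 were listed at 0 in all pigs of one group. ELF4-AS1 (chromosome X, 106633879 to 106661126), opposite a gene for an ETS transcription factor, was at 0.217, 0.226 and 0.249 FPKM in the S-H pigs and 0 in the 3 S-L pigs. TENM3-AS2 (chromosome 15, 43979389 to 44215936), opposite a teneurin gene, was at 0.265, 0.209 and 0.203 FPKM in the S-H pigs and 0 in the S-L pigs. ENSSSCG00000011059-AS1 (chromosome 10, 49555809 to 49563536) was at 0.380, 0.161 and 0.619 FPKM in the S-H pigs and 0 in the S-L pigs, and its partner was listed at 0 in all 6 pigs. These 3 were above 0 in S-H alone. CFAP54-AS1 (chromosome 5, 87084750 to 87089437), inside a gene for a ciliary protein, showed the reverse, at 0 in the 3 S-H pigs and at 0.194, 0.438 and 0.261 FPKM in the S-L pigs. Their unadjusted p from limma lay between 0.00642 and 0.00924 and their adjusted p between 0.727 and 0.782.

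KMT5A-AS1 (chromosome 14, 29536940 to 29537923), inside the gene for the methyltransferase of lysine 20 of histone H4, was the other one lower in S-H. It was at 0.534, 0.453 and 0.407 FPKM in LW63, LW70 and LW119 and at 1.08, 1.31 and 1.25 FPKM in LW82, LW88 and LW90. The pigs of a group were close to each other and the groups well apart (log2 fold change -1.22 ± 0.34, limma adjusted p = 0.784). KMT5A overlapped between the groups, with a log2 fold change of 0.21.

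**Figure D5:**
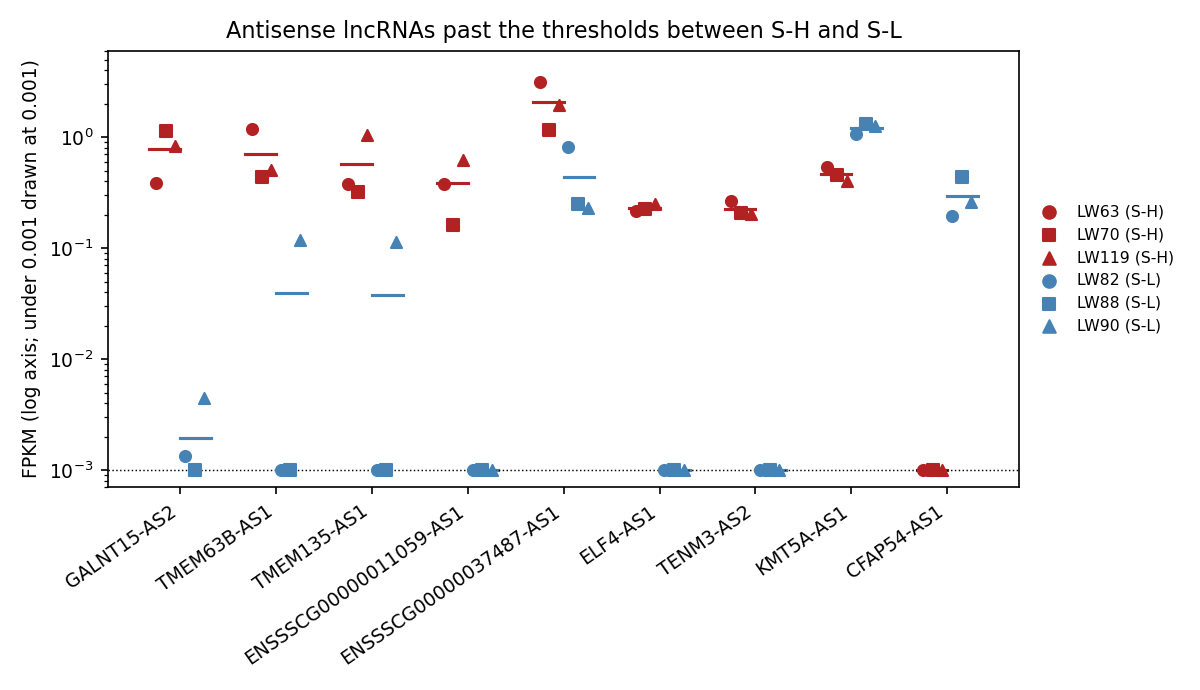
FPKM in each pig (y axis, log axis, values under 0.001 drawn at 0.001) of the 9 antisense lncRNAs past the thresholds, with S-H pigs in red, S-L pigs in blue and a line at each group mean. The groups do not overlap in any of the 9, and KMT5A-AS1 and CFAP54-AS1 are the ones with S-L above S-H.

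One locus had both an antisense lncRNA and a partner past the thresholds. The gene ENSSSCG00000037487, on chromosome 12 with a span that overlaps that of the amine oxidase gene AOC2, lies where RefSeq places LOC100520329. The gene was at 55.9, 30.4 and 29.97 FPKM in the S-H pigs and at 15.5, 14.0 and 10.2 FPKM in the S-L pigs (log2 fold change 1.5 ± 0.31, limma adjusted p over genes = 0.477). ENSSSCG00000037487-AS1 (chromosome 12, 19997000 to 20021510) was at 3.11, 1.17 and 1.95 FPKM in the S-H pigs and at 0.821, 0.252 and 0.228 FPKM in the S-L pigs (log2 fold change 2.10 ± 0.57, limma adjusted p = 0.769). Neither transcript overlapped between the groups, LW63 was the highest and LW90 the lowest pig for both, and r was 0.94 (rho = 0.94, and r = 0.93 without the 2 most extreme pigs). ENSSSCG00000037487-AS1 fell below the thresholds in 9 of 16 other settings, among them no minimum, no variance trend and 5 of the 6 fits without 1 pig, where its unadjusted p from limma lay between 0.0119 and 0.0441 (all but the fit without LW82).

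The locus had 5 antisense lncRNAs in all, which share genomic sequence and are not independent of each other. ENSSSCG00000037487-AS2, ENSSSCG00000037487-AS4 and ENSSSCG00000037487-AS5 also lay over AOC2, whose mean was 0.0478 FPKM. ENSSSCG00000037487-AS2 was at 1.65, 0.864 and 0.751 FPKM in S-H and at 0.401, 0.0305 and 0.173 FPKM in S-L (log2 fold change 2.11, limma adjusted p = 0.822). ENSSSCG00000037487-AS3 had overlapping groups (log2 fold change 0.81, limma adjusted p = 0.852), ENSSSCG00000037487-AS4 was above 0 in LW63 alone, and ENSSSCG00000037487-AS5 had a log2 fold change of -0.15. Their sum was 7.72, 3.44 and 5.23 FPKM in LW63, LW70 and LW119 and 2.85, 1.11 and 1.48 FPKM in LW82, LW88 and LW90. The S-H pigs all stood above the S-L pigs in this sum, as in the adipocyte marker sum given above, and LW63 was the highest pig in both. The part of adipocytes in this locus was not tested.

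Other partners past the thresholds had antisense lncRNAs that did not pass. Of 1026 tested partner genes 8 passed (0.780%, background 1.25% of 14624 genes), 6 higher (0.585%, background 0.957%) and 2 lower in S-H (0.195%, background 0.294%). None passed with adjustment, and 58 (5.65%) had an unadjusted limma p below 0.05, beside 7.23% of all genes. These 8 partners had 13 antisense lncRNAs, of which 8 were tested. For PRR5L, which encodes a regulator of the mTORC2 kinase complex, the log2 fold change was 1.51, and PRR5L-AS1 had 0.32. For TMEM208, a gene for a protein of the endoplasmic reticulum, it was 2.83, and TMEM208-AS1 had -0.03. GDNF, which encodes a neurotrophic factor, had -1.87, and GDNF-AS1 had -1.33. The unadjusted p from limma of these 3 antisense lncRNAs lay between 0.0958 and 0.946.

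A value above 0 in the 3 pigs of one group and 0 in the others was found for 20 antisense lncRNAs. Of the 1515 antisense lncRNAs above 0 in at least 1 pig, 14 were so in S-H (0.924%, background 0.634% of 63063 transcripts) and 6 in S-L (0.396%, background 0.327%). Their means were low, from 0.0387 to 0.211 FPKM, and 13 of the 20 reached the minimum for testing. Besides the 4 named above, these included PRRC2C-AS1 and DNM1-AS1 in S-H and KIF1B-AS1 and PEF1-AS1 in S-L, which had limma p between 0.0130 and 0.0480 and are named for this pattern, after their values were seen. At levels this low an exact 0 says only that no value was listed.

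The ratio of antisense lncRNA to partner was taken within each pig, with the pseudocount of 0.1 added to both values. Its median over pairs was -3.24, -3.08 and -2.98 on the log2 scale in LW63, LW70 and LW119 and -3.003, -3.22 and -2.91 in LW82, LW88 and LW90, with overlapping groups. In a limma fit of the log2 ratio over the 898 pairs, 12 passed the same thresholds (1.34%, 0.557% higher and 0.780% lower in S-H), with 6 past them without LW70 and 4 with a pseudocount of 1. Of the 12 antisense lncRNAs, all but TMEM208-AS1, FCGR1A-AS9 and ENSSSCG00000016810-AS1 reached a mean of 0.1 FPKM only in the group where they were high. Those had to differ to enter the fit, so the count of 12 is given as a description. None passed with adjustment (lowest Benjamini-Hochberg adjusted p from limma 0.336), and 60 pairs (6.68%) had an unadjusted p below 0.05. Of the 5 pairs with a higher ratio in S-H, those of GALNT15-AS2, TMEM63B-AS1, ELF4-AS1 and TENM3-AS2 are among the 9 above, and the other was PRRC2C-AS1, inside the gene of an RNA-binding protein. It was at 0.0896, 0.253 and 0.922 FPKM in the S-H pigs and 0 in the S-L pigs, while PRRC2C was at 6.59 to 12.6 FPKM.

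The 7 pairs with a lower ratio in S-H were CFAP54-AS1, TMEM208-AS1, FCGR1A-AS5, FCGR1A-AS9, PEF1-AS1, SIK2-AS1 and ENSSSCG00000016810-AS1, which are named here after their values were seen. In TMEM208-AS1 the ratio moved through the partner. TMEM208 was at 7.73, 1.56 and 3.67 FPKM in S-H and at 0.428, 1.10 and 0.113 FPKM in S-L, and TMEM208-AS1 at 0.365, 0.182 and 0.234 FPKM in S-H and at 0.331, 0.285 and 0.183 FPKM in S-L. The groups did not overlap for TMEM208 and overlapped for TMEM208-AS1 (ratio log2 fold change -2.87 ± 0.66, limma adjusted p = 0.598). PEF1 encodes a calcium-binding protein of the ALG-2 family. PEF1-AS1 was 0 in the S-H pigs and at 0.0467, 0.208 and 0.349 FPKM in the S-L pigs, while PEF1 was at 5.58, 4.28 and 5.94 FPKM in S-H and at 3.72, 2.36 and 2.90 FPKM in S-L. Antisense lncRNA and partner stood on opposite sides in PEF1, without overlap of the groups in either (r = -0.87, rho = -0.88).

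Of the 49 genes of fat storage and lipid metabolism measured, 2 (4.08%) had an antisense lncRNA, beside 1254 (4.14%) of the 30311 Ensembl genes on these chromosomes. LPIN1 encodes a phosphatidic acid phosphatase of triglyceride synthesis, and LPIN1-AS1 (chromosome 3, 125070486 to 125074134) was at 1.43, 0.332 and 2.65 FPKM in LW63, LW70 and LW119 and at 1.76, 2.55 and 1.03 FPKM in LW82, LW88 and LW90. LW70 was the lowest pig and the groups overlapped (log2 fold change -0.54 ± 0.73, limma adjusted p = 0.901). LPIN1 was at 20.4, 16.0 and 38.9 FPKM in S-H and at 27.7, 28.6 and 14.1 FPKM in S-L, and r was 0.81 (rho = 0.94, and 0.93 for r without the 2 most extreme pigs). ELOVL6, a fatty acid elongase gene, had an antisense lncRNA that was listed at 0 in all 6 pigs.

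Of 43 muscle genes measured, 5 (11.6%) had 6 antisense lncRNAs, and none of the 6 had an unadjusted p below 0.05. MYH8-AS1 is described above. ATP2A1 encodes the calcium pump SERCA1 of fast muscle fibres, and ATP2A1-AS1 was at 0.270, 3.48 and 2.78 FPKM in S-H and at 0.947, 0.557 and 2.24 FPKM in S-L. That was between 0.121% and 1.01% of ATP2A1, whose mean was 373 FPKM. FHL1-AS1 was at 1.15, 0 and 0.658 FPKM in S-H and at 0.147, 1.16 and 0.481 FPKM in S-L beside one of the most abundant partners, FHL1, with a mean of 1466 FPKM. TNNI1-AS1, opposite slow skeletal troponin I, reached 0.527 FPKM in LW119 and was 0 in LW70 and LW90. PDLIM5, a Z-disc gene, had PDLIM5-AS1, which ran from 0.0274 FPKM in LW63 to 2.61 FPKM in LW82, and PDLIM5-AS2, which was above 0 in 3 pigs. The groups overlapped in all of these.

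Of 21 genes measured that have a named antisense RNA in human or mouse, 3 had an assembled one in these pigs, with 4 antisense lncRNAs, and none of the 4 had an unadjusted p below 0.05. Whether they correspond to the named human or mouse RNAs was not examined. ZEB1-AS1, opposite a transcription factor gene known for epithelial to mesenchymal transition, was at 0.844, 0.660 and 0.851 FPKM in S-H and at 0.683, 0.550 and 0.503 FPKM in S-L, where ZEB1 had a mean of 0.449 FPKM. HIF1A, the gene of the oxygen-regulated transcription factor, had HIF1A-AS2, highest in LW82 at 3.28 FPKM and at most 0.951 FPKM in the other pigs, and HIF1A-AS1, which was above 0 in 3 pigs. The groups overlapped in these 3.

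The partners with the most antisense lncRNAs were IFN-OMEGA-6 with 14, FCGR1A with 12, COMMD4 with 9, DIO2 with 7 and PSMA3 with 6. The antisense lncRNAs of one partner mostly share ends and sequence, so that they are alternative transcripts of 1 or 2 assembled loci. At IFN-OMEGA-6, a type I interferon gene on chromosome 1 that was itself at a mean of 0.0160 FPKM, they summed to between 1.05 FPKM in LW88 and 4.01 FPKM in LW82. FCGR1A encodes the high-affinity receptor for IgG. Of its 12 antisense lncRNAs 3 were 0 in every pig and 3 were at or near 0 outside LW119, while the sum over all 12 varied only from 0.912 FPKM in LW70 to 2.77 FPKM in LW82. The 9 of COMMD4, which had a mean of 22.5 FPKM itself, summed to between 1.09 and 1.76 FPKM.

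DIO2 encodes the deiodinase that activates thyroid hormone. Its antisense lncRNAs summed to 2.52 and 2.12 FPKM in LW63 and LW70, to 0.0734 FPKM in LW119 and to 1.95, 1.32 and 1.06 FPKM in LW82, LW88 and LW90. LW119 stood far below the other 5 pigs, in which at least 5 of the 7 were above 0. DIO2 itself had a mean of 0.0753 FPKM, below the minimum for testing.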

How the data were processed

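Per the labels and the study's methods, the authors removed ribosomal RNA, prepared libraries that keep the strand, aligned reads to Sus scrofa 11.1 (HISAT2, default parameters), and used StringTie for assembly and quantification. lncRNA candidates were screened by number of exons, length and predicted coding potential, and the antisense ones carry the name of a gene. The authors deposited FPKM per transcript and pig, while 21104 Ensembl transcripts that lack a symbol hold TPM by their values. These were brought to FPKM with 1 factor per pig (0.639 to 0.847). Libraries were not scaled further. All 6 pig columns were used, and read counts were not.

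The test was limma 3.58.1 (R 4.3.3, variance trend) on log2(FPKM + 0.1) for everything reaching a mean of 0.1 FPKM, in place of the study's edgeR because the values are not counts. Benjamini-Hochberg adjustment ran over all tested transcripts, genes or pairs. Values after ± are SDs for group means and standard errors for fold changes. Single values per pig were compared by exact permutation in Python 3.11.15 (scipy 1.17.1). The fits were tested on simulated data.

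The antisense lncRNAs named are the 10 of highest mean, all past the thresholds, those of the gene lists, the 5 highest and 5 lowest r and the 5 partners with most members, and others are said to be named after their values were seen. The members, lists, tests and alternatives were chosen with earlier results of these data known. One antisense lncRNA of these lists is not reported here.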

Additional observations from a re-analysis of the deposited data

How the results depend on the processing

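The count of 9 antisense lncRNAs past the thresholds became 0 with a pseudocount of 1, 0 with a minimum of 1 FPKM (107 tested), 14 with no minimum and 14 with no variance trend. Of the original 9, 7 were kept with no minimum and 8 with no variance trend. The count was 8 to 10 under pseudocount 0.01, TPM, size factors, quantile normalization and a fit over lncRNAs only, and 6 with a robust variance. The original 9 were not all kept: 7 were shared with pseudocount 0.01 and TPM, and 8 with size factors and quantile normalization. The fit over lncRNAs only shared 5 and the robust variance 6. Leaving out 1 pig gave 10 to 22, of which 4 to 6 were among the original 9. The 12 pairs past the thresholds for the ratio became 4 with a pseudocount of 1, and 6 to 15 without 1 pig. Over 256 values of single antisense lncRNAs or ratios under another setting, 143 kept their side of the thresholds, 113 fell below and 0 changed direction, most often KMT5A-AS1 and TMEM135-AS1 (11 settings each) and least often GALNT15-AS2 (1 setting). Detection in all 6 pigs fell from 600 to 387 at a limit of 0.1 FPKM, and was 626 to 653 without 1 pig. The difference in detected antisense lncRNAs per pig, 95.3 more in S-H, ranged from 63.8 to 129 without 1 pig. The log2 difference of the summed FPKM, 0.03, changed sign to -0.12 with size factors, -0.0438 without LW119 and -0.0528 without LW88, and ranged from -0.0528 to 0.131 without 1 pig. The median log2 ratio to the partner, -2.94, became -2.66 with the partner's transcript of highest mean, -2.59 over all pairs above 0 and -3.31 with a pseudocount of 0.01, and was -2.97 to -2.89 without 1 pig. The median r of 0.27 became 0.20 with size factors, 0.33 for pairs above 0 in all 6 pigs, 0.30 on deviations from the group means and 0.20 with the transcript of highest mean. Where a value moved, the cause was not tested. No paired analysis was possible because no pig is in both groups and the replicate numbers only name pigs. Since no counts were used, how much of the spread at low FPKM is counting error was not measured.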
